A study of Mus musculus with 16 samples.

Results

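Complex I of the respiratory chain, NADH:ubiquinone oxidoreductase, is built from nuclear-encoded subunits with symbols beginning Ndufa, Ndufb, Ndufc, Ndufs and Ndufv and from subunits encoded by mitochondrial DNA. Members were taken by these symbol stems, leaving out the Ndufaf assembly factors. The RefSeq gene table held 46 such names, of which 41 were protein-coding and 5 were pseudogenes. A probe with a matching RefSeq accession was found for 38 of them, out of 21154 genes with a probe on the array. The 8 names without a matched probe were Ndufb1, Ndufb4b, Ndufb4c, Ndufa11b, Ndufs6b and the copies Ndufa12-ps, Ndufab1-ps and Ndufs5-ps, and the mitochondrially encoded subunits were not analysed here. All 38 measured members were well above background on each of the 16 arrays, none was saturated, and all 38 were among the 14063 genes tested.

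The enzyme takes electrons from NADH at the tip of its matrix arm, passes them along a chain of iron-sulfur clusters to ubiquinone at the foot of that arm, and couples this to proton pumping through its membrane arm. The core subunits carry the flavin, the clusters and the quinone site, and the accessory subunits surround them and are needed for assembly or stability. Heart muscle is among the tissues richest in mitochondria, and complex I is a main entry point for electrons from fatty acid and carbohydrate oxidation there.

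RNA came from ventricles of female mice, 1 mouse per array and 4 independent mice in each of 4 groups. The groups were nulliparous Npr1+/+ (wild-type), nulliparous Npr1-/- (knockout), 2-week lactating Npr1+/+ and 2-week lactating Npr1-/- mice. Npr1 encodes the guanylyl cyclase receptor of natriuretic peptides, and the series asks how its loss bears on enlargement of the heart in lactation. The labels give neither the age nor the strain of the mice, and the knockout is labelled only as -/-, with no promoter or Cre. The samples are whole ventricular tissue, so fewer cells of a type and less RNA per cell cannot be told apart.

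Cardiomyocyte marker genes, all 10 of those listed, were well above background on every array. The probe for Npr1 lay at -4.68 to -3.53 and was above background on 9 of 16 arrays, 5 of the 8 knockout and 4 of the 8 wild-type arrays, so it did not check the genotype labels. The signal at an array's 75th percentile was 165 to 221 on 7 nulliparous arrays and 278 to 347 on the lactating arrays. Nulliparous knockout replicate 4 stood apart from its group: its 75th percentile was 284, and on the first principal component of all tested genes it lay at 14.54, against -46.91 to -39.33 for the other nulliparous arrays and 27.64 to 41.93 for the lactating arrays. Of the 38 members, 12 were higher on that array than on the other 3 of its group, 17 were lower and 9 lay between them. Results on the subunits that changed their call without it are given both ways, as are those of the subunits on which the knockout comparison turns. Each group sat at the same position on both slides, so position and group cannot be told apart.

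Promoter windows of 300 bases (250 before to 50 after the start of the gene) were held by the RefSeq table for 33 of the 38 members. The windows of Ndufs3, Ndufs7 and Ndufs8, core subunits of the quinone module, are shown because each holds a searched motif, given in capitals. They are read 5′ to 3′ on the strand of the gene. Positions are on GRCm38.p6, at chr2:90904672-90904971 (minus strand) for Ndufs3, chr10:80249199-80249498 (plus strand) for Ndufs7 and chr19:3912725-3913024 (minus strand) for Ndufs8.
Ndufs3: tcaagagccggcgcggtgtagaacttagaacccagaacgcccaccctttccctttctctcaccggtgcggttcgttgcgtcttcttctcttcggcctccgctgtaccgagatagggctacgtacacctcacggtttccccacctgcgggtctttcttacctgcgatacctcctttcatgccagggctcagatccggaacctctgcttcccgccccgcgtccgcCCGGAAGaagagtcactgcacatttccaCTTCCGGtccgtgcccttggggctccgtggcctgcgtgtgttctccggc
Ndufs7: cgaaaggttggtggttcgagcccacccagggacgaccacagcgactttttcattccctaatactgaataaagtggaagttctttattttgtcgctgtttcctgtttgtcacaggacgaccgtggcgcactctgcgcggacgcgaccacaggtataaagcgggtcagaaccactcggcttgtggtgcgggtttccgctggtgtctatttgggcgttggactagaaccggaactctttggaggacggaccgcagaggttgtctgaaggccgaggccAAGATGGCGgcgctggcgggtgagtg
Ndufs8: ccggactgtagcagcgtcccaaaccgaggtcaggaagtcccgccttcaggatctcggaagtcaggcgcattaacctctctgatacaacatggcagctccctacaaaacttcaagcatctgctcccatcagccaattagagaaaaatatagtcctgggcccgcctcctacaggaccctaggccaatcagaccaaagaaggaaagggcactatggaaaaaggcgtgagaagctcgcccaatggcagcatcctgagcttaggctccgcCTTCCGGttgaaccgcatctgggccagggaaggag
The capitals in Ndufs3 mark CCGGAAG, the core bound by GABP and other ETS factors, once in each orientation. In Ndufs8 they mark the same core in reverse orientation, and in Ndufs7 they mark AAGATGGCG, a YY1 motif.

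Searched on both strands, the ETS core CCGGAAG was in the windows of 4 of the 33 members (12.1%), against 9.9% of the 27025 genes in the table. The YY1 motif AAGATGGCG was in 5 (15.2%) against 1.6%, and the NRF1 core GCGCANGCG in 8 (24.2%) against 7.0%. TCAAGGTCA, a motif of the oestrogen-related receptors, was in 0 windows of members and in 0.5% of all genes. The ETS core can share its last letters (AAG) with the start of the YY1 motif, and the YY1 motif its last letters (GCG) with the NRF1 core. In all, 16 of the 33 members (48.5%) held at least 1 of the 4, against 16.9% of all genes. Among the 14 members with a window that rose in wild-type lactation, as described further on, 3 held the NRF1 core, 3 the ETS core and 2 the YY1 motif, and among the other 19 members the counts were 5, 1 and 3. A match describes the letters of the window only.

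Lactation was compared with the nulliparous state in each genotype, on log2 signal less the array's 75th percentile, with limma fitted to all 16 arrays and p adjusted over all 14063 genes (called at 0.05). In wild-type ventricles, 16 of the 38 members rose, 3 fell and 19 did not pass the test. Over all genes tested, 31.8% were called higher and 18.5% lower, so that the share of members that fell was below the background. The rises were above it, but without nulliparous wild-type replicate 3 they numbered 12, against 28% of all genes, and the falls 3, against 19.4%. The median change of the members was 0.13 and that of all genes 0.10. In knockout ventricles 6 members rose and 13 fell, against a background of 25.5% higher and 18.6% lower, with a median of -0.07 for the members and 0.06 for all genes. Without nulliparous knockout replicate 4 the counts in the knockout were 8 and 15, and the shares of all genes rose too, to 30.6% and 22.7%. The members that gained a call were Ndufs1, Ndufab1, Ndufs5 and Ndufb3. The knockout change of Ndufb3 was -0.16 (limma adjusted p = 0.153) with that array and -0.22 (limma adjusted p = 0.05 after rounding) without it. The comparisons that follow go through the subunits by their place in the enzyme, and show a small set that rose in both genotypes, a small set that fell in both under 75th-percentile scaling, and bright subunits whose fall in the knockout depended on how the arrays were scaled.

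**Figure D1:**
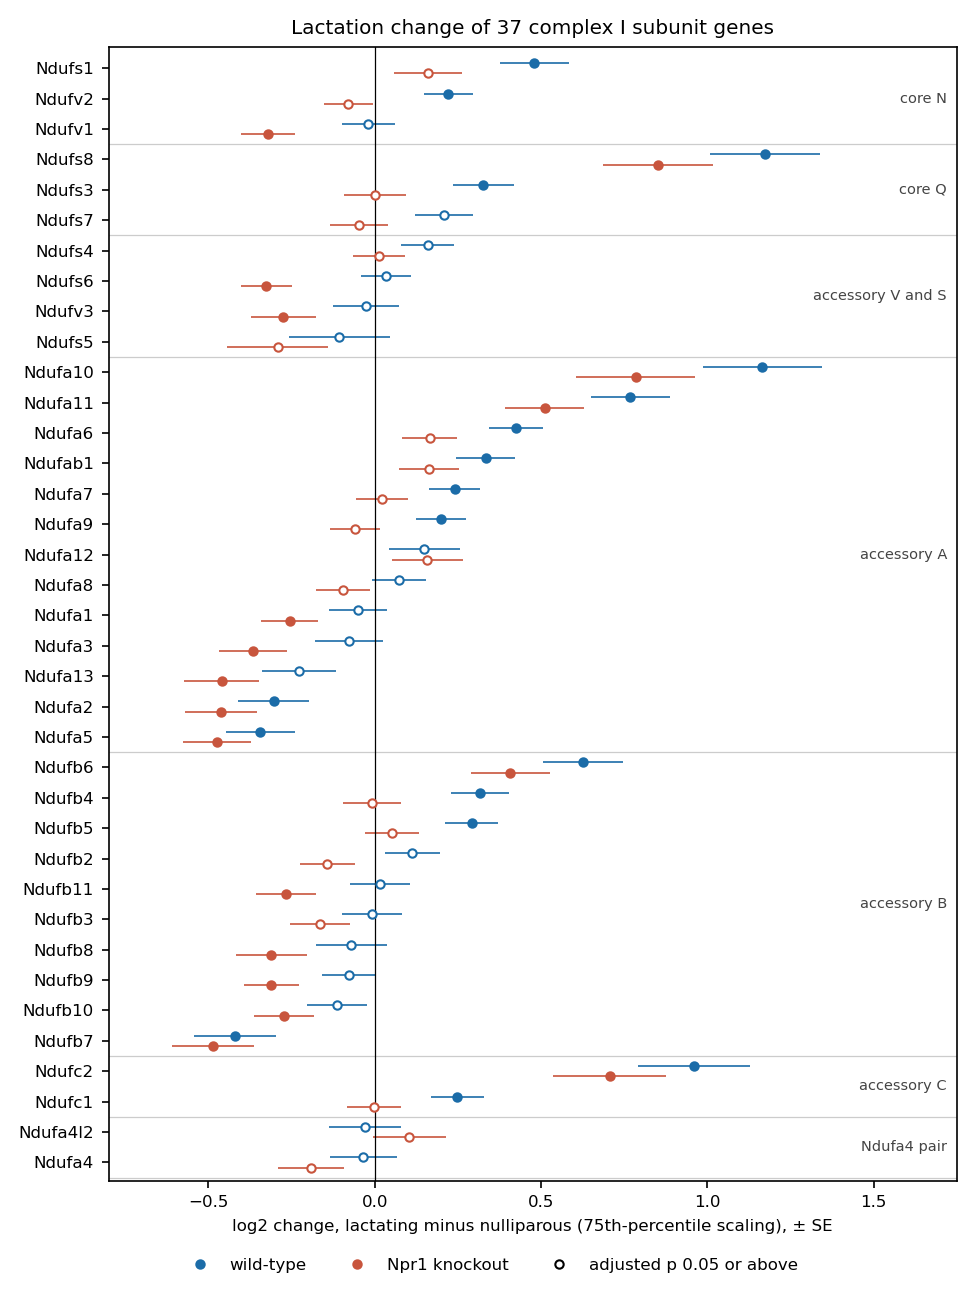
Log2 change from nulliparous to lactating ventricle (x axis, ± SE, 75th-percentile scaling, 4 mice per group) for 37 of the 38 complex I subunit genes, grouped by place in the enzyme, in wild-type (blue) and Npr1 knockout (red) mice. Filled points had a limma adjusted p under 0.05. Ndufs8, Ndufa10 and Ndufc2 lie farthest to the right in both genotypes, and Ndufb7, Ndufa5 and Ndufa2 lie left of 0 in both.

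Ndufs8 carries iron-sulfur clusters of the quinone module, at the foot of the matrix arm. Its nulliparous wild-type arrays read 4.49, 4.73, 4.40 and 4.68, and its lactating wild-type arrays 5.94, 5.61, 5.78 and 5.67. The arrays did not overlap, and the rise was 1.17 ± 0.17, or 2.25-fold (limma adjusted p = 0.000141). Its nulliparous knockout arrays read 4.63, 4.77, 4.67 and 5.54, and its lactating knockout arrays 5.65, 5.84, 5.78 and 5.75. Replicate 4 of the nulliparous knockout was the highest of its group but lay below every lactating array, and the rise was 0.85 ± 0.17, or 1.8-fold (limma adjusted p = 0.00155), and 1.07 (limma adjusted p = 1.81e-06) without that array.

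Ndufs3, another core subunit of that module, read 8.10, 8.12, 7.90 and 7.99 in nulliparous and 8.53, 8.34, 8.29 and 8.26 in lactating wild-type mice, with no overlap, a rise of 0.33 ± 0.09 (limma adjusted p = 0.00918). In the knockout its change was 0.001 ± 0.09 (limma adjusted p = 0.994), and the arrays of the groups overlapped. Ndufs7, which carries the last cluster before quinone, changed by 0.21 ± 0.09 in the wild-type (limma adjusted p = 0.061) and by -0.05 ± 0.09 in the knockout (limma adjusted p = 0.689), neither of which was called. Its wild-type arrays did not overlap, at 8.83 to 9.07 in nulliparous and 9.10 to 9.42 in lactating mice.

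The NADH-oxidising tip of the matrix arm has 3 nuclear-encoded core subunits. Ndufs1, which carries several iron-sulfur clusters, read 7.53, 7.56, 7.49 and 7.52 in nulliparous and 8.07, 7.99, 8.002 and 7.94 in lactating wild-type mice, a rise of 0.48 ± 0.10 without overlap (limma adjusted p = 0.00169). In the knockout it read 7.68, 7.71, 7.53 and 8.15 in nulliparous and 7.91, 7.95, 7.96 and 7.91 in lactating mice. Replicate 4 of the nulliparous knockout was above every other array of both states, and the change of 0.16 ± 0.10 (limma adjusted p = 0.219) was 0.29 (limma adjusted p = 0.00157) without it. Ndufv2, a cluster-bearing partner of the flavin subunit, rose by 0.22 ± 0.07 in the wild-type (limma adjusted p = 0.0202), with lactating arrays at 7.68 to 7.87 and nulliparous arrays at 7.46 to 7.68. Leaving out nulliparous replicate 3 or 4, or lactating replicate 1 or 3, moved its limma adjusted p to between 0.0507 and 0.0588, and in the knockout its change was -0.08 ± 0.07 (limma adjusted p = 0.393).

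Ndufv1 binds the flavin and NADH itself. It did not pass the test in the wild-type, at -0.02 ± 0.08 (limma adjusted p = 0.859). In the knockout it read 9.18, 9.23, 8.995 and 9.001 in nulliparous and 8.83, 8.82, 8.69 and 8.79 in lactating mice, a fall without overlap by 0.32 on the log2 scale (SE 0.08, limma adjusted p = 0.00572). Without nulliparous replicate 4 the change was -0.355 (limma adjusted p = 0.00225). Under quantile scaling, with all arrays, it was -0.21 (limma adjusted p = 0.0883), and was no longer called.

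Of the 4 accessory subunits named with the V and S stems, 0 were called in the wild-type, where their changes ran from -0.11 to 0.16. In the knockout Ndufs6 and Ndufv3, both of the NADH-oxidising tip, fell by 0.33 and 0.28 on the log2 scale (limma adjusted p = 0.00396 and 0.0344), and by 0.36 and 0.34 without nulliparous replicate 4. Under quantile scaling none of these 4 subunits was called in either genotype, and Ndufs6 in the knockout was at 0.08 (limma adjusted p = 0.55). Ndufs4 and Ndufs5 were called in neither genotype, although Ndufs5 in the knockout, at -0.29 (limma adjusted p = 0.133), was at -0.39 (limma adjusted p = 0.0468) without nulliparous replicate 4.

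Among the 13 accessory subunits with the A stem, 6 rose and 2 fell in the wild-type, and 2 rose and 5 fell in the knockout. Ndufa10, an accessory subunit with a nucleoside kinase fold, read 5.29, 5.47, 5.43 and 5.25 in nulliparous and 6.70, 6.45, 6.57 and 6.38 in lactating wild-type mice. It rose 2.24-fold there, by 1.17 ± 0.18 (limma adjusted p = 0.000224), without overlap. In the knockout it read 5.61, 5.62, 5.23 and 6.42 in nulliparous mice, replicate 4 being the highest, and 6.45, 6.55, 6.55 and 6.47 in lactating mice, a rise of 0.78 ± 0.18 (limma adjusted p = 0.00358). Without nulliparous replicate 4 that rise was 1.02 (limma adjusted p = 4.63e-06). Ndufa11, a subunit of the membrane arm, rose by 0.77 ± 0.12 in the wild-type (limma adjusted p = 0.000233) and by 0.51 ± 0.12 in the knockout (limma adjusted p = 0.00401). Nulliparous knockout replicate 4 read 6.15, against 5.74 on average in the others of its group, and the knockout rise was 0.61 (limma adjusted p = 0.000333) without it.

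The other A-stem subunits that rose in the wild-type were Ndufa6, Ndufab1, Ndufa7 and Ndufa9, by 0.20 to 0.42, and none of these 4 was called in the knockout. Nulliparous wild-type replicate 3 was low for Ndufa7 (7.55, others of its group 7.80 on average), Ndufa9 (6.96, others 7.13) and Ndufab1 (0.70, others 0.96). These low values add to the wild-type rises, and whether each call held without that array is not given. Ndufab1 is the acyl carrier protein of mitochondria, which also serves fatty acid synthesis and is present in complex I as a subunit. It read 0.97, 0.96, 0.70 and 0.94 in nulliparous and 1.16, 1.36, 1.22 and 1.18 in lactating wild-type mice, a rise of 0.33 ± 0.09 without overlap (limma adjusted p = 0.00705). In the knockout its change was 0.16 ± 0.09 (limma adjusted p = 0.156), and 0.22 without nulliparous replicate 4, which was called (limma adjusted p = 0.0403). Its copy Ndufab1-ps had no matched probe, so signal shared between them could not be assessed.

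Ndufa5 and Ndufa2, accessory subunits of the matrix arm, fell in both genotypes under the 75th-percentile scaling. Ndufa5 read 9.62, 9.51, 9.23 and 9.55 in nulliparous and 9.19, 9.06, 9.07 and 9.20 in lactating wild-type mice, a fall by 0.34 on the log2 scale (SE 0.10, limma adjusted p = 0.0127). The groups did not overlap, but nulliparous replicate 3, the lowest of its group, lay only just above the highest lactating array. In the knockout Ndufa5 fell by 0.47 on the log2 scale (SE 0.10, limma adjusted p = 0.00279), and its change was -0.56 (limma adjusted p = 0.000181) without nulliparous replicate 4. Under quantile scaling neither of these changes was called (-0.27 with limma adjusted p = 0.0856 in the wild-type, and -0.17 with limma adjusted p = 0.266 in the knockout). The second probe of Ndufa5 gave 0.17 and 0.03, and the mean of both probes gave -0.09 in the wild-type (limma adjusted p = 0.405) and -0.22 in the knockout, which was still called (limma adjusted p = 0.0481). The direction of the single probes thus differed.

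Ndufa2 read 8.95, 8.84, 8.59 and 8.88 in nulliparous and 8.58, 8.50, 8.43 and 8.54 in lactating wild-type mice. The groups did not overlap, and the fall was 0.30 ± 0.11 on the log2 scale (limma adjusted p = 0.03). Its knockout arrays read 9.01, 8.93, 9.05 and 8.54 in nulliparous and 8.44, 8.50, 8.34 and 8.42 in lactating mice, a fall of 0.46 ± 0.11 (limma adjusted p = 0.00416). Replicate 4 of the nulliparous knockout was the lowest of its group, and without it the change was -0.57 (limma adjusted p = 7.91e-05). Both falls were also called under quantile scaling, at -0.39 and -0.37. In the wild-type the call was lost without nulliparous replicate 1, 2 or 4 or lactating replicate 2 or 3 (limma adjusted p = 0.058 to 0.0863).

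Ndufa13, which lies where the matrix arm meets the membrane arm, gave the clearest dependence on scaling. It read 9.90, 9.83, 9.91 and 9.44 in nulliparous and 9.46, 9.40, 9.14 and 9.25 in lactating knockout mice, and fell by 0.46 on the log2 scale (SE 0.11, limma adjusted p = 0.00513). The groups overlapped through nulliparous replicate 4, and without it the change was -0.57 (limma adjusted p = 0.000194). Under quantile scaling the change was 0.01 (limma adjusted p = 0.966). Ndufa3 and Ndufa1 also fell in the knockout, by 0.37 and 0.26 on the log2 scale (0.46 and 0.30 without nulliparous replicate 4), and of these Ndufa1 was called under quantile scaling too.

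Of the 11 B-stem subunits, 10 had a probe. In the wild-type Ndufb6, Ndufb4 and Ndufb5, all of the membrane arm, rose and Ndufb7 fell, and in the knockout Ndufb6 rose and 5 fell. For Ndufb5, nulliparous wild-type replicate 3 read 7.11, against 7.36 on average in the others of its group, which adds to its rise. Ndufb6 rose by 0.63 ± 0.12 in the wild-type (limma adjusted p = 0.00078) and by 0.41 ± 0.12 in the knockout (limma adjusted p = 0.0133), or by 0.52 (limma adjusted p = 0.000716) without nulliparous replicate 4. Ndufb4 read 7.92, 7.99, 7.78 and 7.98 in nulliparous and 8.46, 8.19, 8.202 and 8.08 in lactating wild-type mice, a rise of 0.32 ± 0.09 (limma adjusted p = 0.00842), and changed by -0.01 ± 0.09 in the knockout. Its copies Ndufb4b and Ndufb4c had no matched probe.

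Ndufb7, which faces the intermembrane space, fell furthest of the called members in both genotypes. It read 9.46, 9.37, 9.02 and 9.29 in nulliparous and 9.003, 8.82, 8.80 and 8.84 in lactating wild-type mice, a fall of 0.42 ± 0.12 on the log2 scale (limma adjusted p = 0.011). In the knockout it read 9.36, 9.33, 9.47 and 8.87 in nulliparous and 8.81, 8.81, 8.68 and 8.80 in lactating mice, a fall of 0.49 ± 0.12 (limma adjusted p = 0.00618). The groups did not overlap in either genotype, although nulliparous wild-type replicate 3 and nulliparous knockout replicate 4 lay close to the lactating arrays. Without the latter the knockout change was -0.62 (limma adjusted p = 0.000132). Both falls were called under quantile scaling as well, at -0.43 and -0.33. The others that fell in the knockout were Ndufb8, Ndufb9, Ndufb10 and Ndufb11, by 0.27 to 0.31, and none of these 4 was called under quantile scaling.

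Both C-stem subunits, small proteins of the membrane arm, rose in the wild-type. Ndufc2 read 6.07, 6.02, 5.86 and 5.87 in nulliparous and 6.999, 6.97, 6.98 and 6.72 in lactating mice, a rise of 0.96 ± 0.17, or 1.95-fold (limma adjusted p = 0.000487), without overlap. In the knockout it read 6.08, 6.10, 5.65 and 6.77 in nulliparous and 6.87, 6.91, 6.87 and 6.77 in lactating mice, with replicate 4 of the nulliparous group among the lactating arrays. The knockout rise was 0.71 ± 0.17 (limma adjusted p = 0.00467), and 0.91 (limma adjusted p = 1.79e-05) without that array. Ndufc1 rose by 0.25 ± 0.08 in the wild-type (limma adjusted p = 0.0181) and changed by -0.002 ± 0.08 in the knockout (limma adjusted p = 0.985).

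Ndufa4, named as a complex I subunit but since assigned to cytochrome c oxidase, and its hypoxia-inducible paralog Ndufa4l2 were called in neither genotype. Ndufa4 changed by -0.03 ± 0.10 in the wild-type and -0.19 ± 0.10 in the knockout (limma adjusted p = 0.797 and 0.132). Ndufa4l2 read 3.30 to 3.78 over all 16 arrays, and its changes were -0.03 ± 0.11 and 0.10 ± 0.11 (limma adjusted p = 0.841 and 0.46).

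**Figure D2:**
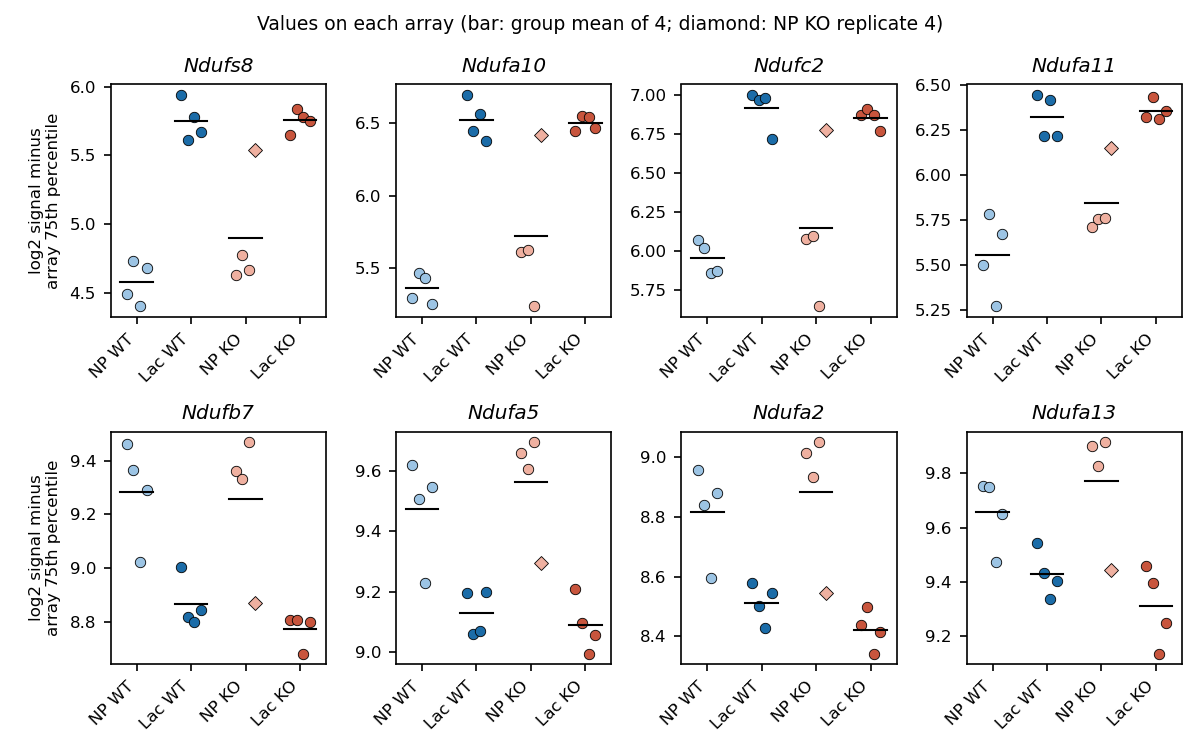
Log2 signal less the array's 75th percentile (y axis) on each of the 16 arrays for 8 complex I subunit genes, by group (nulliparous, NP, and lactating, Lac; wild-type, WT, and Npr1 knockout, KO), with bars at the means of 4 mice. In the upper genes nulliparous knockout replicate 4 (diamond) is the highest array of its group, and in the lower genes it is the lowest array of its group.

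By arrays rather than by the fit, all 4 lactating arrays lay above all 4 nulliparous arrays for 16 members in the wild-type and below them for 3, against 30.4% and 17% of all genes. In the knockout the counts were 4 above and 10 below, against 19% and 14.1%, and under quantile scaling 5 above and 4 below, against 19.3% and 13.9%. Within each slide there were 2 mice per group. On slide 1, 8 members rose and 3 fell in the wild-type, against 23.8% and 15.8% of all genes, and 7 rose and 10 fell in the knockout, against 25.3% and 18.6%. On slide 2, 0 members were called, and over all genes 67 were called higher and 19 lower in the wild-type and 0 in the knockout. Ndufs8 changed by 1.16 on slide 1 and 1.18 on slide 2 in the wild-type, and by 1.04 and 0.66 in the knockout.

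The choice of scaling separated the rises from the falls. Under quantile scaling 16 members rose and 2 fell in the wild-type, against 30% and 21.1% of all genes, and these were the same 16 members that rose under the 75th percentile. In the knockout 8 rose and 3 fell, against 26.5% and 18.7%. The 6 that rose under both scalings in the knockout included Ndufs8, Ndufa10, Ndufc2, Ndufa11 and Ndufb6, and the 3 that fell under both were Ndufb7, Ndufa2 and Ndufa1. The other 10 falls in the knockout were called under the 75th percentile only, while Ndufa6 and Ndufa12 were called higher under quantile scaling only. No member was called in opposite directions, but the sign of the change turned for 3 members in the wild-type and 6 in the knockout. The median knockout change of the members was -0.07 under the 75th percentile and 0.05 under quantile scaling, and that of all genes 0.06 and 0.07.

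Centring each array on its median instead shifted all values upward in lactation, to a median over all genes of 0.28 in the wild-type and 0.24 in the knockout. With that centring 21 members were called higher and 0 lower in the wild-type, against 43% and 10.6% of all genes, and 10 higher and 2 lower in the knockout, against 37.7% and 9.92%. In the knockout both shares of members were thus below those of all genes. Ndufs8 and Ndufa10 changed by 1.36 and 1.35 in the wild-type and by 1.03 and 0.97 in the knockout. Ndufb7, Ndufa5 and Ndufa2 stayed below 0 there, at -0.24, -0.16 and -0.12 (limma adjusted p = 0.12, 0.221 and 0.36), but were not called. In the knockout Ndufa5 and Ndufa2 remained called, at -0.29 and -0.28 (limma adjusted p = 0.0377 and 0.0467), and Ndufb7, at -0.30, had a limma adjusted p of 0.0561. The rises of Ndufs8 and Ndufa10 were thus called in both genotypes under the 75th percentile, quantile scaling and median centring, whereas among the falls only that of Ndufa2 in the knockout was called under all of these.

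**Figure D3:**
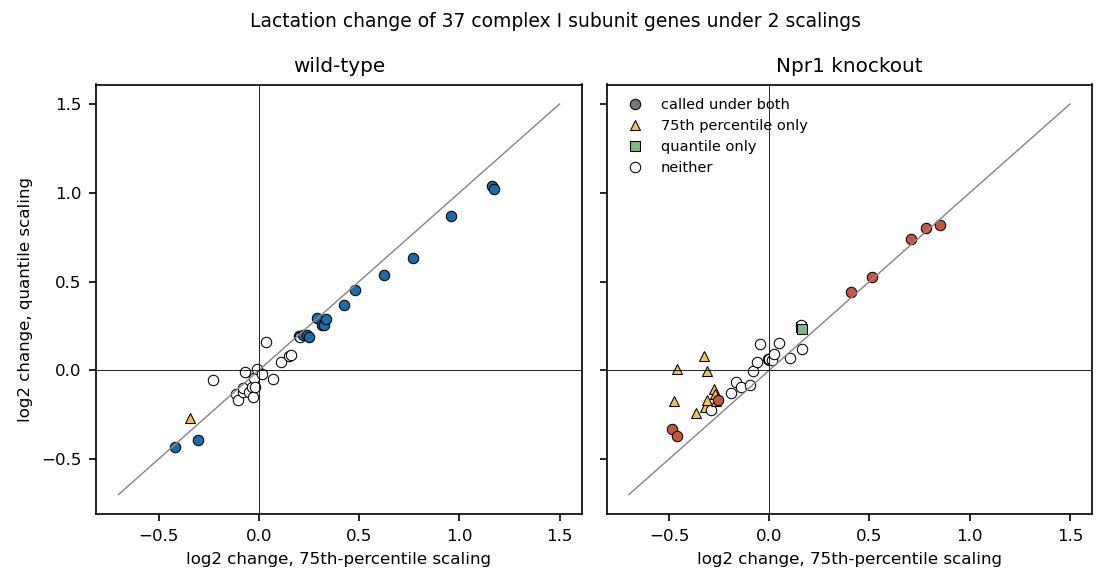
Log2 lactation change of each of 37 of the 38 complex I subunit genes under 75th-percentile scaling (x axis) and quantile scaling (y axis), in wild-type (left) and Npr1 knockout (right) mice, with the line of equal values. Symbols mark whether the change had a limma adjusted p under 0.05 under both scalings, 1 of them or neither; the 10 triangles in the knockout panel are the falls called under the 75th percentile only.

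The change of a member was related to its signal level. Across the 38 members, the mean level over the 16 arrays and the lactation change had a Spearman correlation of -0.71 in the wild-type and -0.82 in the knockout (-0.60 and -0.59 under quantile scaling). This is a correlation across genes, which share the same arrays and are not independent replicates, and the mean level includes the values that give the change. The 19 members above a level of 8 had a median change of -0.05 in the wild-type and -0.29 in the knockout, and the 186 genes of all kinds at that level had -0.07 and -0.26. The 15 members at levels of 6 to 8 had medians of 0.25 and 0.02, against 0.08 and -0.05 for 439 genes. A signal level also depends on the probe, and its part in the falls was not tested. At levels above 8 the members and all genes had like medians under the 75th percentile. Under quantile scaling the members there had medians of -0.093 in the wild-type and -0.134 in the knockout. All genes at that level had -0.038 and -0.044, so the medians of the members were lower in both genotypes.

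**Figure D4:**
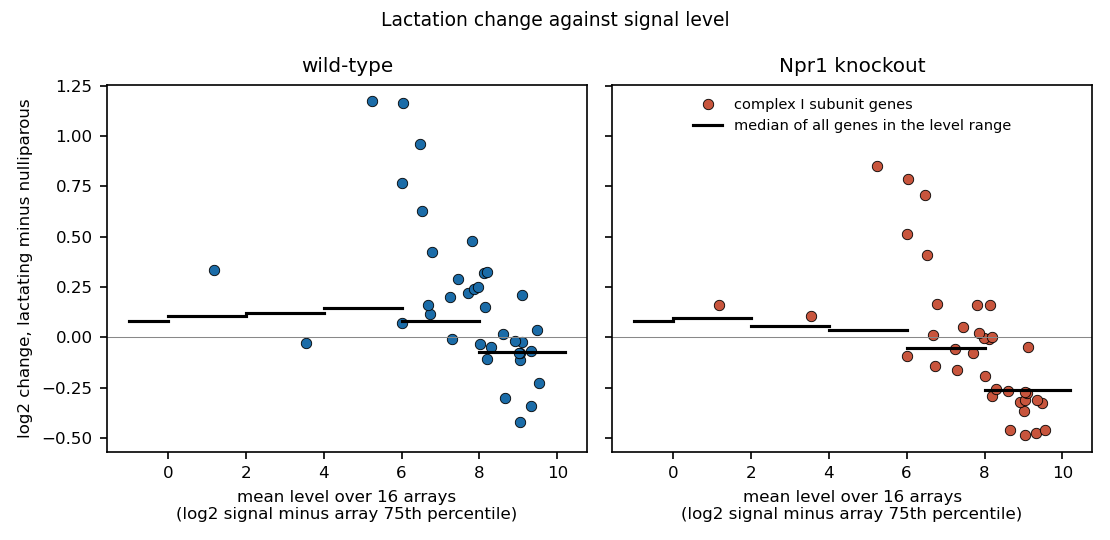
Log2 change from nulliparous to lactating (y axis, 75th-percentile scaling) against mean level over 16 arrays (x axis) for 37 of the 38 complex I subunit genes (points), in wild-type (left) and knockout (right) mice. Black lines are medians of all tested genes within ranges of level; the 19 members above 8 lie around the line there and the members between 6 and 8 mostly above it.

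Of the 6 members with several probes, the brightest of which was used, Ndufb4, Ndufb5, Ndufb6 and Ndufb11 had both probes in the same direction in the wild-type. For Ndufb11 the probe used was near 0 there. The dimmer probe of Ndufb5 gave a larger change than the one used, 1.42 and 1.24 in the wild-type and knockout against 0.29 and 0.05. For Ndufb11 the dimmer probe gave 0.83 and 0.34 against 0.02 and -0.27, and for Ndufv3 0.26 and 0.23 against -0.03 and -0.28. In the knockout, then, the probes of Ndufb11 and of Ndufv3 had opposite signs, as had those of Ndufa5 and, with both values near 0 (0.06 and -0.01), Ndufb4.

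Wild-type and knockout were next compared within each reproductive state, a comparison that asks what loss of the receptor does to the subunits. With limma, 0 members were called in nulliparous mice and 0 in lactating mice, under either scaling, against 0.0996% and 0.199% of all genes under the 75th percentile and 0.107% and 0.171% under quantile scaling. At an unadjusted p under 0.05, 10 members were higher and 0 lower in nulliparous knockouts, against 6.5% and 2.13% of all genes; under quantile scaling 4 were higher and 0 lower, against 5.65% and 2.6%. The smallest limma adjusted p among members was 0.354, for Ndufab1 (0.31 ± 0.09) and Ndufv2 (0.25 ± 0.07). All 4 nulliparous knockout arrays lay above all 4 wild-type arrays for 7 members, against 3.24% of all genes, and below them for 0, against 0.825%. Under quantile scaling the counts were 3 and 0, against 2.45% and 1.1%. The median difference of the members was 0.14, against 0.05 for all genes, and 0.06 against 0.02 under quantile scaling. Without nulliparous knockout replicate 4 it was 0.17 against 0.04, and 12 members were higher and 0 lower at an unadjusted p under 0.05, against 6.94% and 2.62% of all genes.

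The wild-type array of nulliparous replicate 3 moved with this difference. Its members lay at a median of -0.28 from their 16-array means, the lowest of all arrays, and at -0.22 under quantile scaling; the other nulliparous wild-type arrays lay at -0.07 to 0.00 and the nulliparous knockout arrays at 0.02 to 0.10 under the 75th percentile. Without it the median genotype difference of the members was 0.09, against 0.02 for all genes, and 4 members were higher and 0 lower at an unadjusted p under 0.05, against 5.32% and 3.7%. With limma, 0 members were called in the genotype comparisons without it, as without nulliparous knockout replicate 4. In wild-type lactation without it, Ndufs8, Ndufa10 and Ndufc2 changed by 1.12, 1.19 and 0.93.

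**Figure D5:**
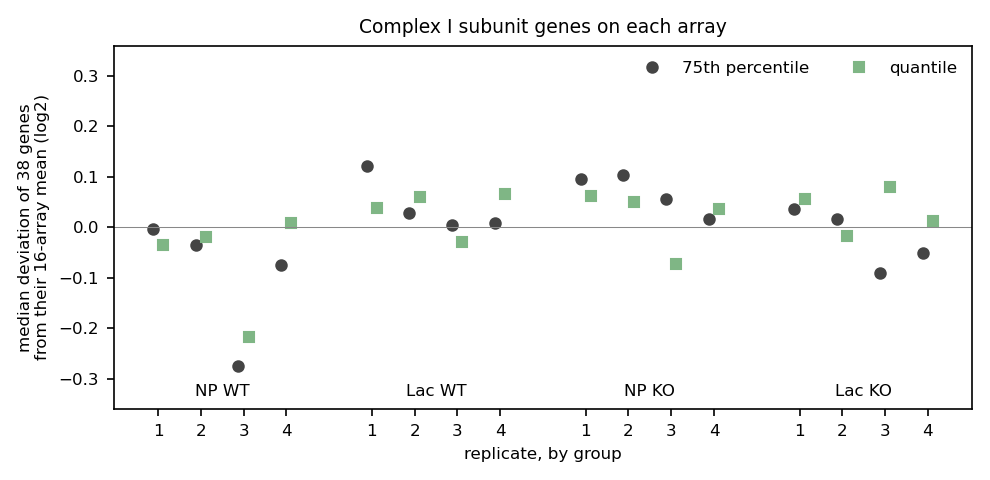
Median, over the 38 complex I subunit genes, of the deviation from each gene's 16-array mean (y axis, log2) for each array by group and replicate (x axis), under 75th-percentile (circles) and quantile (squares) scaling. Nulliparous wild-type (NP WT) replicate 3 is the lowest array under both, at -0.28 and -0.22.

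In lactating mice, 2 members were lower in the knockout at an unadjusted p under 0.05 and 0 were higher, against 4.9% and 4.24% of all genes. These were Ndufa3 (-0.26 ± 0.10, limma adjusted p = 0.439) and Ndufs6 (-0.19 ± 0.08, limma adjusted p = 0.465). Under quantile scaling 0 members passed that level in either direction, against 4.96% of all genes higher and 4.01% lower. For Ndufs8 the difference between lactating genotypes was 0.01, with a 95% interval from -0.35 to 0.36, and for Ndufa10 -0.02, from -0.41 to 0.37, so that differences of up to those bounds could not be told from 0 with 4 mice per group. Arrays of lactating knockouts lay below all wild-type arrays for 3 members and above them for 0, against 4.54% and 3.23% of all genes.

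The genotype by lactation interaction, which tests whether the lactation change differed between genotypes, called 0 members under either scaling, against 0.0924% of all genes under both. At an unadjusted p under 0.05, 11 members had a lower lactation change in the knockout and 0 a higher one, against 4.37% and 2% of all genes, and under quantile scaling 0 members passed in either direction, against 3.06% and 2.63%. The smallest limma adjusted p was 0.567, for Ndufs6 (-0.36 ± 0.11). For Ndufs8 the interaction was -0.32, with a 95% interval from -0.83 to 0.19, and for Ndufa10 -0.38, from -0.93 to 0.17. Without nulliparous knockout replicate 4 these were -0.11, from -0.40 to 0.18, and -0.15, from -0.46 to 0.17. In that fit 15 members had a lower change in the knockout and 0 a higher one at an unadjusted p under 0.05, against 6.51% and 2.99% of all genes, and the smallest limma adjusted p was 0.225, for Ndufs6 at -0.40. Thus 10 members were called higher in the wild-type alone and 10 lower in the knockout alone under the 75th percentile, without a called difference between the genotypes for any of them. The interaction shares all 4 groups with the comparisons above. It thus includes nulliparous wild-type replicate 3, on which the members were lowest. Unadjusted counts for the interaction without that array are not given, and 0 members were called when it was left out.

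The Ndufaf proteins and other assembly factors, which build the enzyme but do not stay in it, were set beside the subunits. Of 19 tested, 15 rose and 0 fell in the wild-type, with a median change of 0.51, against 31.8% and 18.5% of all genes. In the knockout 13 rose and 1 fell, with a median of 0.38, against 25.5% and 18.6%. The counts under quantile scaling were 14 and 1, against 30% and 21.1% of all genes, and 13 and 1, against 26.5% and 18.7%. Most of these factors had lower signal levels than most subunits, and the part of level in their changes was not tested. Among them, Tmem126b rose by 1.40 ± 0.22 and 1.18 ± 0.22 (limma adjusted p = 0.000272 and 0.00141), Ndufaf3 by 1.19 ± 0.15 and 0.92 ± 0.15 (limma adjusted p = 8.45e-05 and 0.000694), and Foxred1 by 0.92 ± 0.12 and 0.58 ± 0.12 (limma adjusted p = 0.000112 and 0.00241). The member that fell in the knockout was Ecsit, by 0.31 on the log2 scale (limma adjusted p = 0.0124).

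Subunits of complexes II to V gave counts nearer to those of complex I. Of 47 tested, 15 rose and 3 fell in the wild-type, with a median of 0.07, and 8 rose and 17 fell in the knockout, with a median of -0.12. Over all genes the shares called were 31.8% higher and 18.5% lower in the wild-type and 25.5% and 18.6% in the knockout, so the wild-type rises of this list were near the background. Under quantile scaling 14 rose and 3 fell in the knockout, against 26.5% and 18.7% of all genes, so the rises there were near the background. The 17 falls, like those of complex I, were thus mostly absent under that scaling. Of 18 other genes of mitochondrial import, membrane and matrix, 13 rose and 1 fell in the wild-type, with a median of 0.53, and 9 rose and 1 fell in the knockout. The one that fell was Slc25a4, the heart form of the adenine nucleotide carrier, by 0.34 and 0.58 on the log2 scale (limma adjusted p = 0.0313 and 0.00231). Under quantile scaling 12 of these 18 genes rose and 1 fell in the wild-type, against 30% and 21.1% of all genes. In the knockout 10 rose and 0 fell, against 26.5% and 18.7%.

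Among 15 regulators of mitochondrial gene transcription, 4 rose and 4 fell in the wild-type, against 31.8% and 18.5% of all genes. In the knockout 2 rose and 4 fell, against 25.5% and 18.6%. Under quantile scaling the counts were 3 and 4, against 30% and 21.1%, and 2 and 3, against 26.5% and 18.7%. With 15 genes, each gene moves such a share far, so no difference from all genes is read from these counts. The coactivator gene Ppargc1a fell by 0.60 on the log2 scale in the wild-type and by 1.17 in the knockout (SE 0.19 in both, limma adjusted p = 0.0155 and 0.00067), and Ppargc1b fell by 1.46 and 0.82 (limma adjusted p = 2e-04 and 0.00836). Tfam, which packages mitochondrial DNA and is needed for its transcription, rose by 1.30 ± 0.22 and 1.09 ± 0.22 (limma adjusted p = 0.000366 and 0.00188), and Esrrg, an oestrogen-related receptor, rose by 1.00 ± 0.17 and 0.81 ± 0.17 (limma adjusted p = 0.00037 and 0.00217). Of the factors whose motifs were searched above, Nrf1 fell by 0.41 and 0.43 on the log2 scale (limma adjusted p = 0.00382 and 0.00419). Gabpb1 rose by 0.30 in the wild-type (limma adjusted p = 0.00516) and was not called in the knockout (limma adjusted p = 0.0817). Gabpa, Yy1 and the other oestrogen-related receptor genes, Esrra and Esrrb, were called in neither genotype.

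Cell type markers were set beside the shares of all genes called in lactation. These were 31.8% higher and 18.5% lower in the wild-type and 25.5% and 18.6% in the knockout. Under quantile scaling they were 30% and 21.1%, and 26.5% and 18.7%. In the wild-type the endothelial, cardiomyocyte and smooth muscle rises were near or below the share of all genes. Each of these lists holds 10 genes or fewer, so no difference from that share is read from them. Of 7 macrophage markers, 6 rose in the wild-type and 7 in the knockout, their summed signal running from 21.5 to 25.6 times the array's 75th percentile in nulliparous and from 40.8 to 47.7 in lactating wild-type mice, and from 19.4 to 37.8 and from 45.6 to 55.1 in the knockout. Cardiomyocyte markers gave 2 higher and 3 lower of 10 in the wild-type and 2 higher and 7 lower in the knockout under the 75th percentile, but 3 higher and 0 lower in each under quantile scaling. Their summed signal was 8940 to 10800 in nulliparous and 8260 to 8860 in lactating wild-type mice, and 8610 to 11500 and 7170 to 8080 in the knockout. Fibroblast markers gave 3 higher and 1 lower of 7 in the wild-type and 4 higher in the knockout, with summed signals of 341 to 441 over the 16 arrays, and endothelial markers 2 and 3 higher of 6, with 39.7 to 66.7. Of 3 red cell markers 2 rose in the wild-type and 3 in the knockout, and their sum went from between 340 and 432 on nulliparous arrays to between 504 and 772 on lactating arrays. Of 4 adipocyte markers tested, 2 rose in the wild-type (sums of 0.734 to 1.03 in nulliparous and 1.42 to 2.92 in lactating mice) and 2 fell in the knockout (0.267 to 0.417 and 0.124 to 0.265), with Ucp1 and Lep not well above background on any array. Of 4 atrial cardiomyocyte markers, 1 rose and 2 fell in the wild-type and 1 rose and 3 fell in the knockout, with medians of -1.82 and -2.41; their summed signal was 198 to 360 in nulliparous and 409 to 758 in lactating wild-type mice, and 223 to 719 and 477 to 1130 in the knockout. Of 6 smooth muscle and pericyte markers, 1 rose and 3 fell in each genotype, with sums of 59.2 to 105 over the 16 arrays. Of 2 skeletal muscle markers tested, 1 rose in each genotype, with sums of 52.5 to 64.2 in nulliparous and 83.4 to 124 in lactating wild-type mice and 44.2 to 89.7 in nulliparous and 83.8 or more in lactating knockouts, and Myh4 was not well above background on any array. The part of cell composition in the changes of the subunits was not tested.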

How the data were processed

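Ventricular RNA of 16 female mice was hybridised to one-colour Agilent arrays, with 200 ng of total RNA per sample labelled with Cy3, per the labels' protocols. The authors deposited scanner intensity values extracted with Agilent Feature Extraction 10.7.3.1, background-subtracted within the array and not scaled between arrays, per the file headers, with flags for control spots, outliers, saturation and background. A probe table in log2 units, which the authors deposited too, correlated at r = 1 over 24445 bright probes with the signal centred on each array's 75th percentile and then on the nulliparous wild-type mean (column medians -0.382 to 0.032), and served as an alternative. The headers name mm9, so positions are given only for RefSeq promoter windows on GRCm38.p6.

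Non-control spots were averaged into 55681 probes, named through RefSeq accessions; the brightest probe stood for a gene. Genes that passed the well-above-background flag on every array of some group were tested with limma 3.58.1 (R 4.3.3, data.table version 1.17.8, jsonlite version 2.0.0): 4 group means, 12 residual degrees of freedom, 5 contrasts, two-sided, Benjamini-Hochberg adjustment, called at 0.05. The fit was tested on simulated data. Figures used matplotlib 3.10.9.

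The members and lists were chosen with earlier results of these data known. Named genes were the nuclear-encoded core subunits, up to 4 called members with the largest rise and the largest fall per comparison, the Ndufa4 and Ndufb4 families, Ndufab1 and members not measured; others named stand for group counts, and 1 member counted among the 38 is not reported here. Promoters were printed for the first 3 core subunits, by symbol, that hold a motif.

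Alternatives were quantile scaling, median centring, normexp (offset 50, on the median spot signal, which is what the files hold), other filters, the mean of a gene's probes, other limma settings, slide and replicate blocks, the authors' table, leaving out each array, and, chosen after seeing the data, each slide alone. The number of arrays limits precision. The labels call the mice independent.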

Additional observations from a re-analysis of the deposited data

Results flagged for a closer look

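Within each group of 4 arrays, 1 array stood far from the other 3 for 18 of the 152 combinations of a member and a group that were checked; chance gives about 1 in 20. Most were low values on nulliparous wild-type replicate 3, for Ndufs6 (9.30, other arrays 9.52 on average), Ndufs7 (8.83, others 9.06), Ndufv3 (8.88, others 9.19), Ndufb9 (8.87, others 9.13), Ndufa3 (8.88, others 9.20), Ndufb11 (8.30, others 8.69), Ndufa12 (7.89, others 8.03), Ndufa7 (7.55, others 7.80), Ndufb5 (7.11, others 7.36), Ndufa9 (6.96, others 7.13) and Ndufab1 (0.70, others 0.96).

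Nulliparous knockout replicate 4 was low for Ndufa3 (8.88, others 9.24) and Ndufb3 (7.22, others 7.44) and high for Ndufa11 (6.15, others 5.74) and Ndufs8 (5.54, others 4.69). Lactating knockout replicate 3 was low for Ndufb7 (8.68, others 8.80), lactating wild-type replicate 1 high for Ndufs4 (6.90, others 6.68), and lactating wild-type replicate 4 low for Ndufc2 (6.72, others 6.98).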

How the results depend on the processing

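Counts of called members moved by over 1.5 times as follows. With median centring, which moved the median of all genes to 0.28 in the wild-type and 0.24 in the knockout and the share of calls that were higher from 63.2% to 80.3% and from 57.9% to 79.2%, 0 members fell in the wild-type (21 rose), and 10 rose and 2 fell in the knockout. The falls in the knockout numbered 3 under quantile scaling and 8 under normexp. Slide 1 alone gave 8 rises in the wild-type, and slide 2 alone 0 rises and 0 falls in either genotype, with 67 and 19 of all genes called in the wild-type and 0 in the knockout. Leaving out 1 array gave 12 to 16 rises and 2 to 4 falls in the wild-type, and 6 to 8 rises and 8 to 15 falls in the knockout, the lowest without nulliparous replicate 2 or lactating replicate 3 and the highest without nulliparous replicate 4. The genotype comparisons and the interaction called 0 members under each alternative run. Of the named members' changes, leaving out arrays aside, 262 values kept direction and call under an alternative, 31 lost the call (19 of them on slide 2 alone) and 6 gained it. The only change of sign among named called values was Ndufa13 in the knockout, at 0.007 under quantile scaling. Ndufs7 in the wild-type was called without lactating replicate 3 (limma adjusted p = 0.0498), with the replicate or slide as a block (0.0424 and 0.0301), in the authors' table (0.0482), with median centring (0.00589) and with normexp (0.00483).

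With the replicate number as a block, 16 members rose and 3 fell in the wild-type and 6 rose and 14 fell in the knockout. Same-numbered arrays correlated at -0.045 to 0.178 over 16 pairs, 6 of them over 0.1. They also shared a slide and a row on it, so these correlations cannot decide whether the numbers pair mice. The labels do not say that they do.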
